A study of Mus musculus with 9 samples.

Results

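The testis transcriptomes of Pfn3-deficient and wild-type mice were compared across germ cell stages, sperm structures, organelles and pathways. The mice were C57BL/6 males. Pfn3-/- animals (KO) carried a CRISPR/Cas9 deletion in Pfn3, which encodes the testis-specific profilin 3, and the labels do not say which of the deletion lines each animal came from. Pfn3+/+ animals (WT) were the controls, and 3 animals of each genotype entered the comparison, out of 9 in the series. RNA came from whole testes of sexually mature males from which the tunica albuginea had been taken off, and the QuantSeq method read it near the 3′ end of each polyadenylated transcript. Genes were included by 1 rule, 10 or more normalized counts in 3 or more of these 6 animals. This rule kept 14223 of the 38674 genes in the table. A normalized count is a read count divided by 1 size factor per animal. Differences are given as log2(normalized count + 1) in KO minus WT, with the standard error (SE) of the limma fit.

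Sperm are made in the seminiferous tubules, where spermatogonia divide, enter meiosis as spermatocytes and leave it as haploid round spermatids. Round spermatids then elongate, build an acrosome from Golgi-derived vesicles, form a flagellum behind a transient microtubule sleeve called the manchette, and exchange histones for transition proteins and then protamines. Profilins bind actin monomers and guide the growth of actin filaments. The testis also holds Sertoli cells, which nurse the germ cells, and Leydig cells, which make testosterone. In bulk testis RNA, fewer cells of a type and less RNA per cell cannot be told apart.

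Pfn3 itself had 592, 383 and 373 normalized counts in WT and 74.7, 215 and 279 in KO. All 3 KO animals lay below all 3 WT animals, with a log2 difference of −1.41 (SE 0.52), which did not pass the test (limma adjusted p = 0.61). Reads near the 3′ end do not check the deletion. Pfn3 also lies within an exon of Slc34a1 on the other strand.

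Between 3375546 and 4287335 reads per animal were counted on genes. The labels number the replicates but do not describe them further, so that the p-values measure the spread between these animals. In the logarithms of the 14223 genes, WT 1 correlated with the other 5 animals at 0.744 to 0.777, whereas the other 5 correlated with each other at 0.833 to 0.927. The first principal component, 47.9% of the variance, set WT 1 apart, and the second, 21.3%, set KO 2 apart. Of all genes tested, 1397 (9.82%) had a 10-fold or larger range within WT, but 216 had such a range between WT 2 and WT 3. Ldhc, the lactate dehydrogenase of male germ cells, was one of the 1397 and not of the 216, with 799.8, 28984 and 25591 normalized counts in WT. The median of a list is therefore also given without WT 1 or without KO 2 where that moved it by more than 1.5 times, if either value lay further than 0.1 from 0. The share of reads on mitochondrial genes was 2.29% to 2.51% in WT and 2.80% to 3.996% in KO. It was highest in KO 2, and its part in the results was not tested.

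Of the genes tested, 5 (0.0352%) were called, with a Benjamini-Hochberg adjusted p-value below 0.05 together with a log2 difference beyond 1.5 either way. Trim27, which encodes a TRIM-family ubiquitin ligase, rose from 47.05, 25.1 and 30.9 normalized counts in WT to 825, 764 and 879 in KO, 23.96-fold between the means. Srsf9, an SR protein of splicing, had 262, 318 and 285 normalized counts in WT and was at or under 3 reads in each KO animal, so that it fell at least 106-fold. Exosc1, a subunit of the RNA exosome, fell from 161, 156 and 148 to 17.2, 15.5 and 13.4 normalized counts. None of these 3 genes had a KO animal inside the WT range.

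Qrich1, a glutamine-rich nuclear protein, fell from 631, 655 and 507 normalized counts in WT to 85.03, 68.7 and 90.3 in KO. On the same strand it overlaps Gm38366, which had 6.19, 23.2 and 13.5 normalized counts in WT and 37.8, 41.6 and 31.3 in KO, and reads in the shared part could go to either gene. Sap30bp, which is named for its binding to the SIN3 complex protein SAP30, fell from 70.6, 65.6 and 66.6 to 7.73, 5.80 and 6.26. The KO animals of Qrich1 lay apart from WT. Those of Sap30bp did too, but all were under 10, so that this order was set by the inclusion rule. The Het animals had 57.6, 54.9 and 69.8 normalized counts of Qrich1 and 2.83, 51.2 and 4.23 of Sap30bp. The 5 genes lie on 5 chromosomes, and the tested genes next to them were not called. The log2 differences of the 10 neighbours, 1 on each side, lay between −0.66 for Gm13830, below Srsf9, and 0.06 for Gpx6, above Trim27, and the lowest unadjusted p-value among them was 0.151, for Galk1. Gatc lies 159 bases from Srsf9 and had a difference of −0.10, and Impdh2 lies 123 bases from Qrich1 and had −0.17. Recql5, which overlaps Sap30bp on the other strand, had −0.37. The number of calls changed with the animals in the fit. It was 55 without WT 1, 12 without KO 1 and 1 without KO 3. It was 0 by limma without WT 2, WT 3 or KO 2. The counts at an unadjusted p-value under 0.05 were then 957, 1028 and 640. Each of these fits also had 1 animal fewer. The differences of the called genes moved little without KO 2. They were then −3.27 for Exosc1, −6.79 for Srsf9, −2.75 for Qrich1, −3.11 for Sap30bp and 4.64 for Trim27. With all animals they were −3.26, −6.74, −2.86, −3.18 and 4.59 in the same order. On the reads recovered from the values, edgeR called the 5 genes only and DESeq2 called 101, these 5 among them. Of list members described below, DESeq2 also called Calr3, Copa, Dpm2, B3gnt9, Vps11, Ctsh, Atg2a, Slc25a36, Slc25a39, Mul1, Bcas2, Ehmt2, Ube2j2, Hsph1, Cfl1, Ttll13, Dynll2 and Wt1. By limma no gene named in the text passed apart from the 5, the lowest adjusted p-value among the others being 0.084.

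Below these cutoffs, 433 genes were higher in KO (3.04%) and 715 lower (5.03%) at an unadjusted p-value under 0.05. All 3 KO animals lay above all 3 WT animals for 1339 genes (9.41%) and below them for 1490 (10.5%). These shares are the background for the lists that follow. They include 86 genes with all WT animals under 10 and 43 with all KO animals under 10. The filter kept these through 1 genotype alone, so that their order was set by the rule. B3gnt9 and Mul1 are among the former, and Srsf9, Sap30bp, Atg2a and Vps11 among the latter. Over all genes tested the median log2 difference was 0.02, and −0.03 without WT 1. The split depended on the scaling: with values set per read counted in each library, 965 genes were higher and 354 lower at this p-value, 73.2% higher against 37.7% with the size factors, and the median of all genes was 0.22. List medians below are to be read against 0.02, which is their reference on the scale of the size factors.

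The difference followed the level of a gene. Among the 3675 genes with a mean of up to 30 normalized counts over the 6 animals, the median log2 difference was 0.17, and all KO animals lay below WT for 5.69% and above for 11.5%. In this class the filter kept 85 genes through KO alone and 35 through WT alone. Among the 696 genes above 1000 normalized counts the median was −0.25, with 28.4% below and 3.02% above. The 1886 genes between 300 and 1000 stood between, at −0.16, with 20.6% below and 4.93% above. Without WT 1 and KO 2 the medians of the lowest and highest classes were 0.05 and −0.13. Lists of abundant genes are therefore also given relative to genes of their own class of level, of which there were 5. For such lists the shares of their class are a nearer background than those of all genes.

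**Figure D1:**
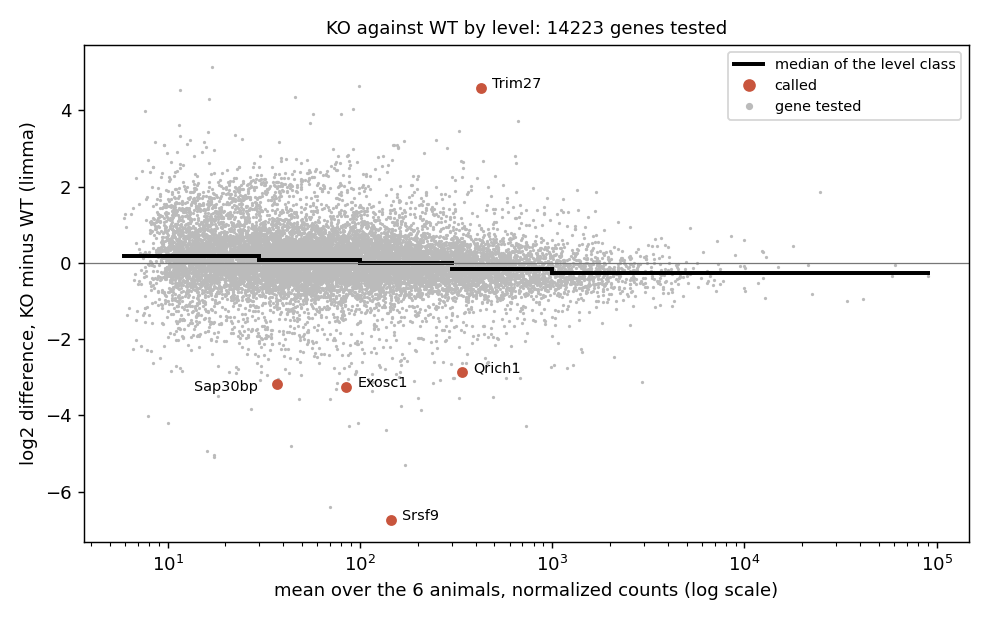
Log2 difference in KO minus WT (vertical axis) of each tested gene against its mean over the 6 animals (horizontal axis, normalized counts on a log scale), with a bar at the median of each of the 5 classes of level and the 5 called genes in red. The median falls from 0.17 in the lowest class to −0.25 in the highest, and Trim27 is the called gene above 0.

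Genes were then grouped by the germ cell stage that is known to express them. For the stages before meiosis the animals of the genotypes overlapped. Of 16 spermatogonial genes tested, 2 were higher in all KO animals and 2 lower, and the median log2 difference of 0.17 was 0.05 without WT 1 and −0.05 without KO 2. The median of the list in each animal, as the deviation from the WT mean of each gene, was 0.12, −0.22 and 0.07 in WT and −0.11, 0.37 and −0.08 in KO, so that the genotypes overlapped. Dazl, an RNA-binding protein needed for germ cell development, had 303, 426 and 591 normalized counts in WT and 769.6, 758 and 645 in KO, and its difference was 0.77 (SE 0.28). Stra8, which is induced by retinoic acid at the start of meiosis, had 82.95, 60.8 and 90.8 normalized counts in WT and 48.96, 27.1 and 51.8 in KO, and its difference was −0.89 (SE 0.33). Gfra1, the GDNF receptor of stem spermatogonia, had 53.2, 44.4 and 52.1 normalized counts in WT and 69.6, 61.9 and 64.3 in KO. Zbtb16, a marker of undifferentiated spermatogonia, stayed between 5.79 and 18.6 normalized counts and was not tested.

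Genes of meiotic prophase lay higher in KO. Of 37 tested, 27 had a positive difference, 11 (29.7%) lay above WT in all KO animals and 2 below, beside 9.41% and 10.5% of all genes, and the median difference was 0.38. The median of the list per animal was 0.13, 0.02 and −0.03 in WT and 0.55, 0.38 and 0.24 in KO, and the ranges did not overlap. At an unadjusted p-value under 0.05, 5 were higher and 0 lower, and none was called. Sycp1, which encodes the transverse filament of the synaptonemal complex, had 1226, 984 and 1001 normalized counts in WT and 2025, 1826 and 1579 in KO, a difference of 0.76 (SE 0.18). Sycp3, a component of its lateral elements, had 531, 455 and 674 normalized counts in WT and 976, 871 and 845 in KO, a difference of 0.71 (SE 0.20). Both lay above WT in each KO animal, but Spo11, the enzyme that makes the meiotic DNA breaks, varied from 0.894 to 130 normalized counts without regard to genotype and was not tested. The median was 0.22 without WT 1 and 0.32 without WT 1 and KO 2.

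Genes that are transcribed from pachytene to the round spermatid did not share a direction. Of 24 tested, 1 (4.17%) lay above WT in all KO animals and 5 (20.8%) below, beside 3.02% and 28.4% of genes above 1000 normalized counts. The median of −0.10 became −0.25 without WT 1 and 0.15 relative to genes of the same level. Ldhc had 29795, 27977 and 34689 normalized counts in KO, and its difference of 1.87 with all animals was 0.17 without WT 1. Piwil1, the PIWI protein of pachytene piRNAs, had 2913, 2188 and 2985 normalized counts in WT and 2616, 3607 and 2862 in KO, with no order by genotype. Tcp11, a testis protein of the sperm flagellum, had 4926, 2812 and 3112 normalized counts in WT and 1781, 1452 and 1624 in KO, a difference of −1.12 (SE 0.25). Calr3, a testis-specific calreticulin, had 917, 149 and 182 normalized counts in WT and 86.8, 31.9 and 62.6 in KO, and Adam5, a sperm surface protein of the ADAM family, had 5329, 3676 and 3605 normalized counts in WT and 3303, 2233 and 3276 in KO. In the last 3 genes no KO animal reached the WT range.

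Round spermatid genes lay lower in KO. All 34 genes of the list were tested, 28 had a negative difference, 16 (47.1%) lay below WT in all KO animals and 0 above, and 10 had an unadjusted p-value under 0.05, all of them lower. The median level of the list was 728 normalized counts. Of all genes between 300 and 1000, 20.6% lay below WT in all KO animals and 4.93% above. The median difference of −0.60 was −0.43 relative to genes of the same level. The median of the list per animal was 0.30, −0.14 and −0.14 in WT and −0.44, −0.94 and −0.38 in KO. KO 2 had the lowest value, and the KO range stayed below the WT range. Tmco5, a coiled-coil membrane protein of the spermatid, had 2812, 1816 and 2029 normalized counts in WT and 983, 668 and 1067 in KO, a difference of −1.29 (SE 0.26). Tssk1, a testis-specific serine kinase, had 1805, 1607 and 1491 normalized counts in WT and 1052, 558 and 914 in KO, a difference of −1.002 (SE 0.27). Ggn, gametogenetin, had 875, 506 and 697 normalized counts in WT and 294, 443 and 294 in KO. In contrast, Crem, the transcription factor that drives the haploid program, had 108, 585 and 269 normalized counts in WT and 525, 155 and 261 in KO, and Acrv1, an acrosomal vesicle protein, had 1826, 969.5 and 1147 normalized counts in WT and 908, 727 and 1069 in KO. Both overlapped between the genotypes, Crem widely so.

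The genes that package spermatid chromatin also lay lower. Of 15 tested, 7 (46.7%) lay below WT in all KO animals and 1 above, beside 28.4% and 3.02% of genes above 1000 normalized counts. The median level of the list was 2072 normalized counts. Its median difference was −0.40, −0.23 without KO 2 and −0.16 relative to genes of the same level. Per animal the list stood at 0.05, −0.05 and 0.00 in WT and −0.19, −0.92 and −0.17 in KO, with KO 2 far below the other KO animals, and the median without WT 1 and KO 2 was −0.17. Prm2, the protamine that is made as a precursor, had 54683, 41373 and 39826 normalized counts in WT and 25746, 16738 and 25543 in KO, a difference of −1.01 (SE 0.22). Tnp2, a transition protein, had 32383, 26072 and 27139 normalized counts in WT and 17677, 12426 and 19613 in KO, a difference of −0.80 (SE 0.20). The other transition protein, Tnp1, had 62238, 69647 and 61857 normalized counts in WT and 61377, 34043 and 61048 in KO. Here KO 1 and KO 3 lay just below the lowest WT animal, and KO 2 far below it. Chd5, a chromatin remodeler needed for histone removal in spermatids, had 721, 622 and 809 normalized counts in WT and 361, 99.6 and 169.8 in KO, a difference of −1.96 (SE 0.46), with no KO animal near the WT range.

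Late spermatid genes of the cytoplasm and tail had a median difference of −0.56, or −0.32 relative to genes of the same level. Of 32 tested, 15 (46.9%) lay below WT in all KO animals and 0 above, beside 28.4% and 3.02% of genes above 1000 normalized counts. The median level of the list was 1680 normalized counts, and 12 genes were lower at an unadjusted p-value under 0.05. Per animal the list stood at 0.12, −0.05 and −0.04 in WT and −0.41, −0.88 and −0.31 in KO, without overlap. Gapdhs, the glycolytic enzyme bound to the fibrous sheath, had 5149, 4093 and 5070 normalized counts in WT and 2408, 2631 and 3177 in KO, a difference of −0.80 (SE 0.18). Spatc1, a centrosomal protein of the sperm head-tail junction, had 1041, 652 and 701 normalized counts in WT and 411, 269 and 436 in KO, and Spata18, a protein of spermatid mitochondria, had 3448, 1584 and 2086 normalized counts in WT and 1023, 806 and 1212 in KO. The KO animals of all 3 genes lay below WT, whereas Oaz3, the antizyme of spermatids, had 11673, 8504 and 4200.1 normalized counts in WT and 5655, 7685 and 3719.7 in KO and Smcp, a cysteine-rich protein of the mitochondrial capsule, had 4845, 7459.9 and 10405 normalized counts in WT and 5458, 5136 and 7537 in KO. These pairs of ranges overlapped.

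**Figure D2:**
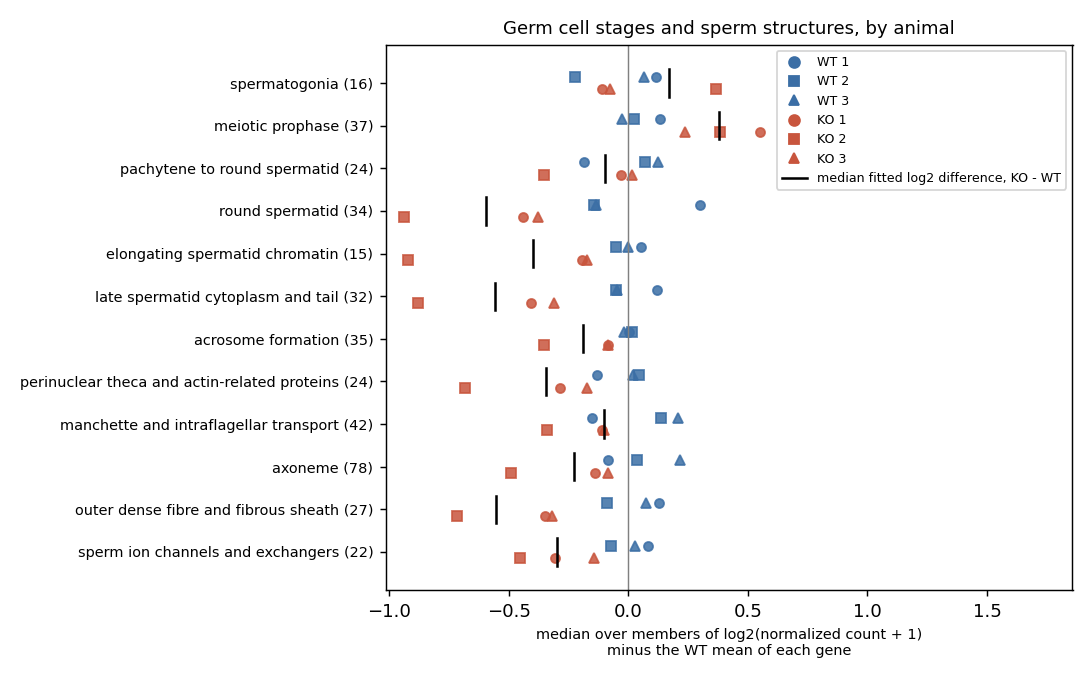
Median deviation in each animal from the WT mean of each gene (horizontal axis, log2) for the lists of germ cell stages and sperm structures, with 1 mark per animal, the number of genes tested in brackets and a black line at the median fitted difference of KO minus WT. KO marks lie above all WT marks for meiotic prophase, with the lowest KO animal at 0.24, and below them for round spermatids, with the highest KO animal at −0.38, and for the late spermatid list, at −0.31.

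**Figure D3:**
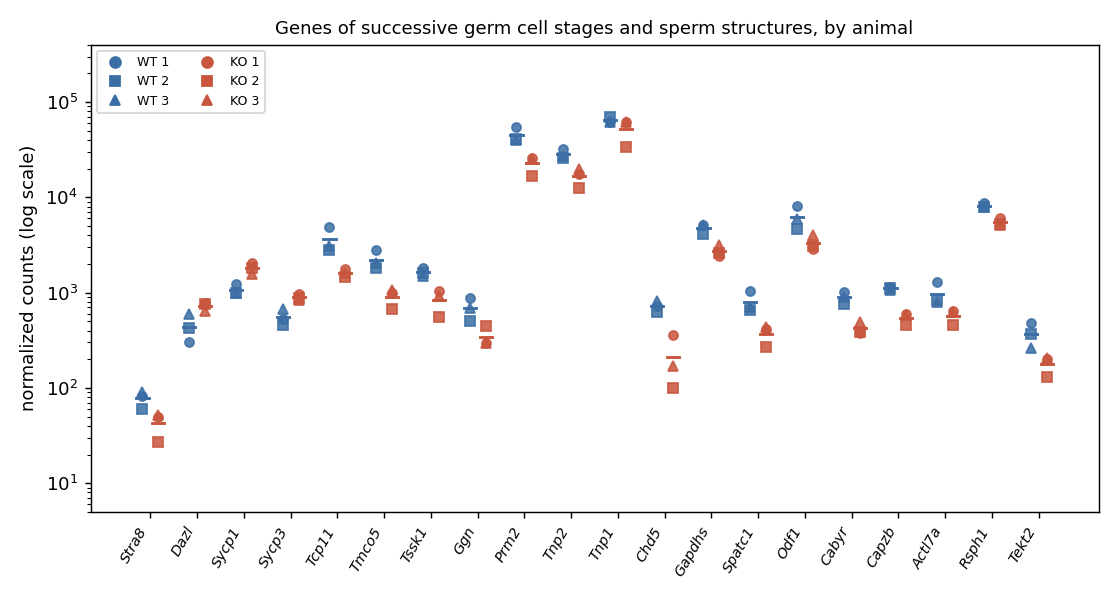
Normalized counts of single genes of successive stages in each WT and KO animal (vertical axis, log scale), with a short bar at the mean of each genotype. Sycp1 and Sycp3 lie higher in all KO animals, and Prm2, Tnp2, Tmco5 and Gapdhs lie lower.

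The sequences before the start sites are shown for a few genes of the meiotic and the haploid lists. The 250 bases upstream of the RefSeq start are given for a pair of genes that lay higher in KO and a pair that lay lower, on GRCm38.p6, each 5′ to 3′ on the gene's strand. They were searched on both strands for TATAAA, the core of the TATA box, and for TGACGT, the core of the element that CREM binds. The windows are chr3:102936101-102936350 (minus strand) for Sycp1, chr10:88459337-88459586 (plus) for Sycp3, chr16:10792106-10792355 (minus) for Prm2 and chr16:10788656-10788905 (minus) for Tnp2. Capitals mark the motif found.
Sycp1: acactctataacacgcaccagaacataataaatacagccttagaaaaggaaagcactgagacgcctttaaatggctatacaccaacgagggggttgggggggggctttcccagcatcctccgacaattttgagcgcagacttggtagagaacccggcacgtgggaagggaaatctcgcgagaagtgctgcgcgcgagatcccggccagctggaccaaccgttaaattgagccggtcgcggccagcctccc
Sycp3: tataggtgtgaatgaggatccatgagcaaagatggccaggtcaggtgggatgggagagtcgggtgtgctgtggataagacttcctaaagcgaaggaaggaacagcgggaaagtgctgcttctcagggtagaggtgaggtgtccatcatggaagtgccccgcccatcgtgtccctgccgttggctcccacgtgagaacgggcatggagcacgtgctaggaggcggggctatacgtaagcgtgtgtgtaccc
Prm2: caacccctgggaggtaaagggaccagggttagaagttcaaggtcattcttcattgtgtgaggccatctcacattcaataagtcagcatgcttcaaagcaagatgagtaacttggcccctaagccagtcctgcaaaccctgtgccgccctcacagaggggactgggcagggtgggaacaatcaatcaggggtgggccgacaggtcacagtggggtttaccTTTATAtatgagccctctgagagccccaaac
Tnp2: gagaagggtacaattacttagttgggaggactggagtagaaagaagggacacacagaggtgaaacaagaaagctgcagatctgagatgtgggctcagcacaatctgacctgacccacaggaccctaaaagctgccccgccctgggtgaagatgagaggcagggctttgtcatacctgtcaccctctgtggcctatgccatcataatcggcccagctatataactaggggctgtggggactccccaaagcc
Of these 4 windows, the one of Prm2 held TATAAA, written on the complementary strand, with its first base 31 bases before the start. It occurs in 12.4% of 32851 such windows of the mouse genome, and in 1 of 17 windows of the spermatid chromatin list. TGACGT, which occurs in 6.47% of the 32851, was in none of the 4. It was in 2 of 17 windows of the spermatid chromatin list, 3 of 37 of the round spermatid list and 3 of 38 of the late spermatid list. In the meiotic prophase list it was in 0 of 34. Prm2 and Tnp2 lie next to each other on chromosome 16.

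Spermatid genes were next divided by the structure their proteins build. Of 35 genes of acrosome formation tested, 4 (11.4%) lay below WT in all KO animals, near the 10.5% of all genes. Only 1 lay above, beside 9.41% of all genes. At an unadjusted p-value under 0.05, 3 were lower and 0 higher. Per animal the list stood at 0.00, 0.01 and −0.02 in WT and −0.09, −0.35 and −0.08 in KO, with all KO animals below WT, and the median of −0.19 was −0.05 relative to genes of the same level. Acr, the acrosin protease, had 375, 381 and 533 normalized counts in WT and 310.1, 509 and 416 in KO, and Zpbp, a zona pellucida binding protein, had 480.4, 912 and 959 normalized counts in WT and 1028, 795 and 1026 in KO, both without order by genotype. Atg7, the E1-like enzyme of autophagy that also serves acrosome formation, had 244, 178 and 185 normalized counts in WT and 99.6, 104 and 117 in KO, a difference of −0.90 (SE 0.21). Sppl2c, a signal peptide peptidase of spermatids, had 816, 614 and 677 normalized counts in WT and 328, 325 and 474 in KO, and Spaca4, an acrosomal membrane protein, had 641, 478 and 470.2 normalized counts in WT and 358, 306 and 385 in KO. These 3 lay below WT in each KO animal.

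The perinuclear theca, the layer between acrosome and nucleus, holds actin-related proteins. Of its 24 genes, 9 (37.5%) lay below WT in all KO animals and 1 above, beside 20.6% and 4.93% of genes between 300 and 1000 normalized counts. The median was −0.34, −0.23 without KO 2 and −0.22 relative to genes of the same level. Capzb, the beta subunit of the protein that caps actin filaments, had 1138, 1108 and 1069.8 normalized counts in WT and 593, 453 and 584 in KO, a difference of −1.03 (SE 0.18). Actl7a, an actin-like protein of the subacrosomal layer, had 1295, 840.2 and 799 normalized counts in WT and 636, 457 and 624 in KO. Actl9, another, had 2009, 1402 and 1162 normalized counts in WT and 971, 638 and 957 in KO. Wbp2nl, a theca protein known for its part in egg activation, had 579, 369 and 349 normalized counts in WT and 233, 217 and 261 in KO, and Actrt3, a testis actin-related protein known to bind profilin 3, had 513, 415 and 418 normalized counts in WT and 339, 264 and 357 in KO. All 5 were lower in every KO animal than in any WT animal, with differences from −1.03 to −0.49.

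Of 42 genes of the manchette and of intraflagellar transport, 9 (21.4%) lay below WT in all KO animals and 3 (7.14%) above. Of all genes between 300 and 1000 normalized counts, 20.6% lay below and 4.93% above. The median of −0.10 became −0.17 without WT 1, −0.03 without KO 2 and 0.09 relative to genes of the same level. Kif3a, a motor subunit of kinesin-2, had 802, 638 and 721 normalized counts in WT and 578, 457 and 442 in KO. Odf2, a major protein of the outer dense fibres that stands in this list too, had 3004, 5464 and 6374 normalized counts in WT and 2998, 1451 and 2452 in KO. Both lay lower in all KO animals, although WT 1 and KO 1 were nearly equal in Odf2. Meig1, a manchette protein, had 9417, 3949 and 3288 normalized counts in WT and 3113, 9012 and 14526 in KO, and Ift88, a subunit of the transport complex, had 121, 201 and 241 normalized counts in WT and 236, 136 and 85.8 in KO. Neither followed genotype.

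The axoneme, the microtubule core of the flagellum, was represented by 78 tested genes. Of these, 20 (25.6%) lay below WT in all KO animals and 1 above, 14 were lower and 0 higher at an unadjusted p-value under 0.05, and the median was −0.23, or −0.12 relative to genes of the same level. Rsph1, a radial spoke head protein, had 8716, 7910.4 and 7942 normalized counts in WT and 5998, 5294 and 5164 in KO, a difference of −0.58 (SE 0.13). Dnali1, a light intermediate chain of inner arm dynein, had 1712, 1313 and 1317 normalized counts in WT and 916, 738 and 907 in KO, and Ak8, an adenylate kinase of the flagellum, had 877, 919 and 1053 normalized counts in WT and 629.6, 410.2 and 573 in KO. Tekt2, a filament protein inside the microtubule doublets, had 478, 364 and 266 normalized counts in WT and 199, 132 and 207 in KO, a difference of −1.02 (SE 0.30). Dnah1, an inner arm heavy chain, had 165, 118 and 167 normalized counts in WT and 114, 185 and 149 in KO and no such order.

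The outer dense fibres and the fibrous sheath surround the axoneme. Of 27 genes tested, 11 (40.7%) lay below WT in all KO animals and 0 above, beside 28.4% and 3.02% of genes above 1000 normalized counts. The median of −0.55 was −0.34 relative to genes of the same level. Per animal the list stood at 0.13, −0.09 and 0.07 in WT and −0.35, −0.72 and −0.32 in KO, without overlap. Odf1, the main protein of the fibres, had 8068, 4700 and 5938 normalized counts in WT and 2882, 3118 and 4070 in KO, a difference of −0.87 (SE 0.25). Cabyr, a calcium-binding protein of the sheath, had 1008, 757 and 903 normalized counts in WT and 380.5, 389.9 and 496 in KO, a difference of −1.07 (SE 0.20). Akap4, the main protein of the sheath, had 45.8, 2573 and 2174 normalized counts in WT and 1770.2, 105 and 137 in KO, so that it spanned a wide range within each genotype. Gapdhs and Tcp11, described above, stand in this list too.

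Of 22 sperm ion channels and exchangers, 5 (22.7%) lay below WT in all KO animals and 0 above, with a median of −0.30, or −0.19 relative to genes of the same level. Catsper1, a pore subunit of the calcium channel of the flagellum, had 157, 181 and 255 normalized counts in WT and 135, 67.7 and 121 in KO, a difference of −0.90 (SE 0.34). Catsper3, another, had 378, 297 and 250.1 normalized counts in WT and 222, 122.9 and 224 in KO. Atp1a4, the sperm sodium pump subunit, had 3626, 2737 and 2918 normalized counts in WT and 2030.5, 1562 and 2359 in KO, a difference of −0.65 (SE 0.21). Slc9c1, the sperm sodium/proton exchanger, had 943, 600 and 568 normalized counts in WT and 698, 468 and 632 in KO, with overlap.

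The cells around the germ cells were followed by the summed level of their markers. The sum of 28 Sertoli genes ranged from 7766 to 8608 in WT and from 7290.1 to 11425 in KO. Its highest value was that of KO 2, the animal with the lowest round and elongating spermatid medians, and KO 1 and KO 3 lay below all WT animals. The sum of 20 Leydig genes ranged from 5469 to 7171 in WT and from 4725 to 6662 in KO, and that of 16 genes of peritubular myoid cells from 1528 to 2194 in WT and from 1383 to 1638 in KO, with overlap in both. Amh, a defining Sertoli marker of the immature testis, was at 0 in all 6 animals. The endothelial sum ranged from 223 to 272 in WT and from 231 to 297 in KO, where Pecam1 stayed at or below 3.57 normalized counts. The part of these cells in the differences of the germ cell lists was not tested.

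The macrophage sum ranged from 2877 to 4721 in WT and from 2016 to 2611 in KO without overlap, but most of it was Aif1, with 4092, 2287 and 2213 normalized counts in WT and 1807, 1079.6 and 2039 in KO. The defining macrophage markers Csf1r, with 54.5, 114 and 93.7 normalized counts in WT and 93.6, 86.1 and 107 in KO, and Lyz2, with 78.001, 159 and 73.4 normalized counts in WT and 124, 151 and 99.2 in KO, overlapped. Erythrocyte genes summed to 929 to 1248 in WT and 855 to 1202 in KO. Of 14 genes of the epididymal epithelium, which would mark tissue carried over in dissection, 8 were at 0 in all 6 animals, Lcn5 among them, and nearly all of the rest was Cst8, a cystatin with 2715, 2456 and 2085 normalized counts in WT and 1896, 1022 and 1966 in KO.

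Single genes of these cells lay on both sides of WT. Of the 25 Sertoli genes tested, 3 lay above WT in all KO animals and 2 below. Wt1, a transcription factor of Sertoli cells, had 9.90, 17.4 and 28.97 normalized counts in WT and 155, 199 and 32.2 in KO, and Cdh2, N-cadherin, had 86.7, 130.2 and 138 normalized counts in WT and 185, 257 and 248 in KO, a difference of 0.97 (SE 0.27). Rhox8, a homeobox gene of Sertoli cells, had 395, 362 and 360.1 normalized counts in WT and 244, 193 and 166 in KO, a difference of −0.90 (SE 0.21). Sox9, the transcription factor that sets Sertoli cell fate, had 144, 114 and 166 normalized counts in WT and 112, 391 and 178 in KO, high in KO 2 alone. In Leydig cells Prlr, the prolactin receptor, had 136, 139 and 151 normalized counts in WT and 54.1, 101 and 20.6 in KO, whereas Cyp17a1, an enzyme of androgen synthesis, had 2631, 1202 and 1138 normalized counts in WT and 1044, 1634 and 979 in KO, which overlapped.

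In the lists of organelles outside the sperm-specific structures, medians were small and both directions occurred. Of 62 genes of Golgi structure and tethering, 6 (9.68%) lay above WT in all KO animals and 8 (12.9%) below, near the 9.41% and 10.5% of all genes. Their median was 0.00. Acbd3, a Golgi scaffold, had 807, 457 and 485 normalized counts in WT and 361, 294 and 295 in KO, Rab6a, a GTPase of Golgi traffic, had 224, 64.6 and 82.1 normalized counts in WT and 14.6, 59.01 and 10.7 in KO and Vti1b, a SNARE of the late endosome and Golgi, had 27.2, 28.9 and 28 normalized counts in WT and 18.9, 14.5 and 13.4 in KO. Golga2, the matrix protein GM130, had 73.05, 62.7 and 61.8 normalized counts in WT and 48.1, 23.2 and 55.4 in KO, with each KO animal below WT, and Tgoln1, which marks the trans-Golgi network, had 422, 302 and 332 normalized counts in WT and 405, 405 and 354 in KO. The members thus lay on both sides. The 3 genes named first were the ones with the lowest p-values in the list and not its typical members.

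The COPI coat returns vesicles from the Golgi to the endoplasmic reticulum (ER). Copa, its alpha subunit, had 214, 365 and 448 normalized counts in WT and 47.2, 29.99 and 36.6 in KO, a difference of −3.10 (SE 0.34) (limma adjusted p = 0.102). DESeq2 called Copa, and edgeR did not. Copb1, a beta subunit, had 81.7, 103 and 98.5 normalized counts in WT and 89.3, 115 and 69.7 in KO, and the median of the 9 coat genes was −0.19, or −0.39 without KO 2. Copa thus lay apart from WT in each KO animal, and Copb1 overlapped. Among 32 genes of the COPII coat and ER exit the median of 0.25 became −0.03 without WT 1. Trappc2l, a tethering subunit, had 643, 587 and 556 normalized counts in WT and 365, 302 and 397 in KO, a difference of −0.75 (SE 0.18), and lay lower in each KO animal.

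Dpm2 encodes a regulatory subunit of dolichol-phosphate mannose synthase, which supplies mannose for protein glycosylation. It had 234, 158 and 160.3 normalized counts in WT and 18.9, 6.77 and 5.36 in KO, a difference of −4.19 (SE 0.48). B3gnt9, a glycosyltransferase gene, was at or under 3 reads in each WT animal and had 25.8, 38.7 and 31.3 normalized counts in KO, at least 10.1-fold higher. It overlaps D230025D16Rik on the other strand, which had 42.1, 28.9 and 29.9 normalized counts in WT and 2.58, 6.77 and 0 in KO. The 2 genes were thus ordered in opposite ways, and reads in the shared part could go to either. Around Dpm2 and B3gnt9, the 86 tested genes of glycosylation and GPI anchors had a median of 0.04. In all KO animals 10 (11.6%) lay above WT and 6 (6.98%) below, beside 9.41% and 10.5% of all genes. The median was 0.14 for ER folding, but 0.02 without WT 1 and 0.08 without KO 2. Peroxisomes stood at 0.14, and at 0.02 and 0.06 without 1 or the other of these animals. Nuclear pore genes had 0.11, which was −0.19 without WT 1 and 0.19 without KO 2. Clathrin and its adaptors (0.01), endosomes (0.07) and lysosomes (−0.01) had medians within 0.1 of 0, also without WT 1 or KO 2.

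Within these lists a few genes lay far apart. Ctsh, a lysosomal cathepsin, had 99.05, 107 and 59.9 normalized counts in WT and 9.45, 11.6 and 9.83 in KO, a difference of −2.95 (SE 0.31). Vps11, a subunit of the tethers that fuse late endosomes with lysosomes, had 11.1, 95.5 and 75.3 normalized counts in WT and 2.58, 6.77 and 6.26 in KO, so that its WT animals spanned a wide range. Atp6v1h, a subunit of the proton pump, had 91.6, 205 and 185 normalized counts in WT and 265, 236 and 289 in KO, higher in each KO animal. Pex16, which acts in peroxisome membrane assembly, had 191, 163 and 132 normalized counts in WT and 99.6, 77.4 and 101 in KO, whereas Pex7, the receptor that imports peroxisomal enzymes, had 30.95, 29.9 and 33.8 normalized counts in WT and 46.4, 68.7 and 50.05 in KO and Agps, an enzyme of ether lipid synthesis that uses this route, had 16.1, 26.05 and 25.1 normalized counts in WT and 33.5, 59.98 and 49.2 in KO. The peroxisomal genes thus lay on both sides of WT.

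Autophagy genes had a median of −0.03 over 48 tested. In all KO animals 3 (6.25%) lay above WT and 7 (14.6%) below, beside 9.41% and 10.5% of all genes. At an unadjusted p-value under 0.05, 5 were lower and 1 higher. Atg2a, a lipid transfer protein of the growing autophagosome, had 11.1, 133 and 259.7 normalized counts in WT and 6.87, 4.84 and 4.47 in KO. Its KO animals were all low, but WT 1 lay near them. Optn, an autophagy receptor, had 240.2, 216 and 196 normalized counts in WT and 128, 139 and 143 in KO, a difference of −0.66 (SE 0.19), and Atg7 is given above. Sqstm1, the receptor p62, had 547, 178 and 236 normalized counts in WT and 368, 133 and 400.4 in KO, with overlap.

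**Figure D4:**
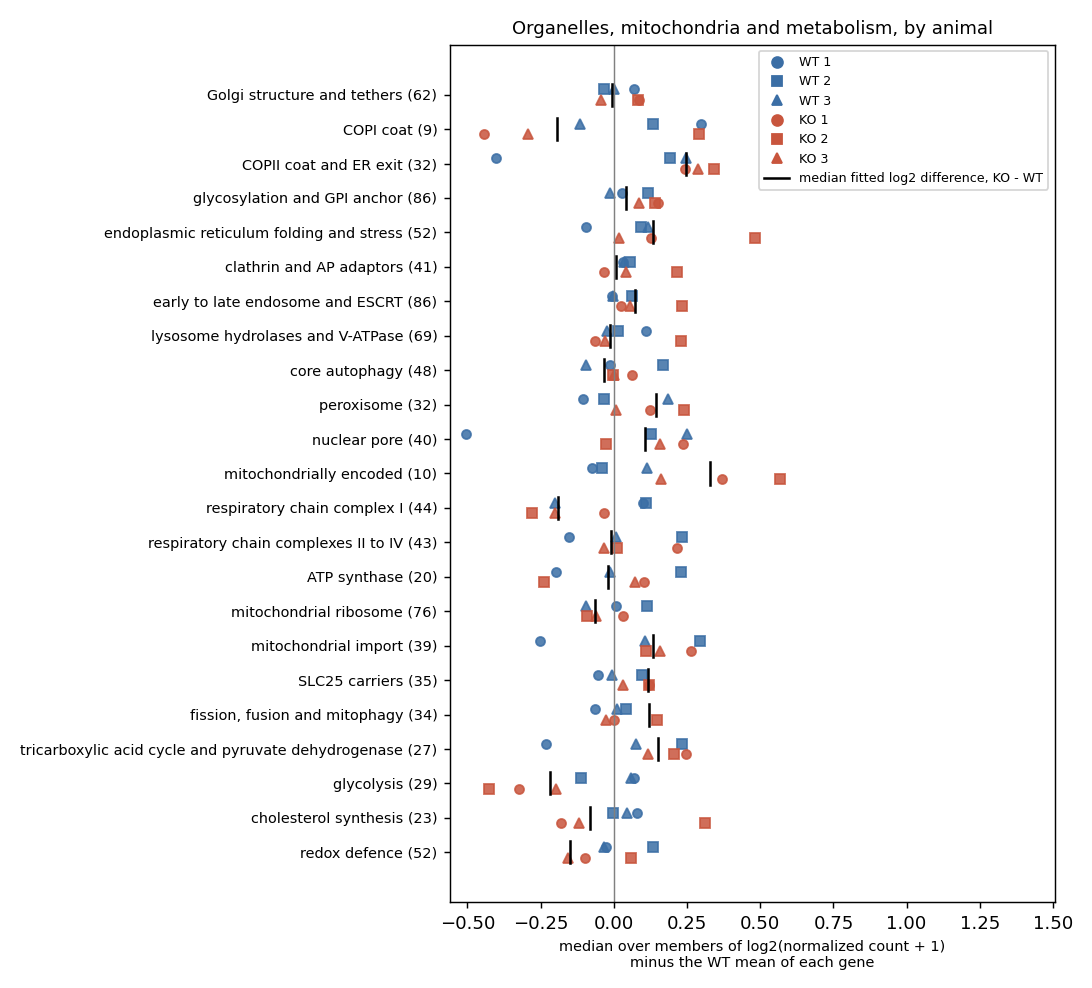
Median deviation in each animal from the WT mean of each gene (horizontal axis, log2) for lists of organelles, mitochondria and metabolism, with 1 mark per animal, the number of genes tested in brackets and a black line at the median fitted difference of KO minus WT. The marks of the genotypes overlap for most lists. Golgi genes have a median difference of 0.00, autophagy genes −0.03 and glycolysis genes −0.22.

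Transcripts of the mitochondrial genome and nuclear genes of complex I had medians on opposite sides of that of all genes. A list of 10 protein-coding transcripts of the mitochondrial genome had a median of 0.33, 0.13 without WT 1, 0.05 without WT 1 and KO 2, and 0.58 relative to genes of the same level. Per animal they stood at −0.07, −0.04 and 0.11 in WT and 0.37, 0.57 and 0.16 in KO, and 2 of them lay above WT in all KO animals. All 22 genes tested on the mitochondrial genome had a median of 0.34. It was 0.48 without WT 1 and 0.49 without WT 1 and KO 2, so that leaving out these animals moved the 2 medians in opposite directions. Per animal the 22 stood at 0.30, 0.02 and −0.39 in WT and 0.42, 0.51 and 0.17 in KO, with overlap. mt-Atp8, an ATP synthase subunit, had 16510, 13668 and 15256 normalized counts in WT and 18976, 26031 and 17301 in KO, and mt-Co1, a cytochrome oxidase subunit, had 11133, 7477 and 6542 normalized counts in WT and 11195, 8568 and 8923 in KO. The mitochondrial share of reads given above was higher in each KO animal than in WT. mt-Atp8 had this order too, whereas mt-Co1 overlapped between the genotypes. Nuclear genes of complex I had a median of −0.19, −0.11 without KO 2, but −0.04 relative to genes of the same level. Of 44, 7 (15.9%) lay below WT in all KO animals and 1 above, beside 20.6% and 4.93% of genes between 300 and 1000 normalized counts. Ndufv3, a complex I subunit, had 532, 529 and 481 normalized counts in WT and 396, 256 and 309 in KO, a difference of −0.70 (SE 0.21). ATP synthase had a median of −0.02 (0.10 relative to genes of the same level), complexes II to IV −0.01 (0.12 without KO 2) and the mitochondrial ribosome −0.06. Mitochondrial import had 0.13, but −0.08 without WT 1 and 0.25 without KO 2. Fission, fusion and mitophagy had 0.12, but −0.03 and 0.07 without WT 1 and KO 2 in turn, and the tricarboxylic acid cycle with pyruvate dehydrogenase 0.15, but 0.00 without WT 1, with overlap of the animals in each.

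Among carriers of the inner mitochondrial membrane single genes stood apart in both directions. Slc25a36, a pyrimidine nucleotide carrier, had 54.5, 55.95 and 61.8 normalized counts in WT and 12.03, 5.80 and 10.7 in KO, a difference of −2.53 (SE 0.34). Slc25a40 had 16.1, 26.05 and 17.4 normalized counts in WT and 46.4, 46.4 and 50.9 in KO and Slc25a39, its relative, had 79.2, 93.6 and 182 normalized counts in WT and 42.1, 35.8 and 33.1 in KO, so that the genotypes were ordered in opposite ways in this pair. Slc25a31, the ADP/ATP carrier of the germ line, had 279, 305 and 270.4 normalized counts in WT and 425, 401 and 391 in KO, while Slc25a4, a carrier of the same kind found in many tissues, had 206, 260.5 and 271 normalized counts in WT and 273, 256 and 316 in KO. Mul1, a ubiquitin ligase of the outer membrane, had 6.19, 6.75 and 6.76 normalized counts in WT and 29.2, 213 and 289.6 in KO, with KO 1 nearest to WT. The 35 carriers had a median of 0.12, 0.05 without WT 1 and 0.00 without KO 2.

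Glycolysis, on which the flagellum depends, was lower as a list. Of 29 genes, 7 (24.1%) lay below WT in all KO animals and 2 (6.90%) above, beside 10.5% and 9.41% of all genes. At an unadjusted p-value under 0.05, 7 were lower and 1 higher. The median was −0.22, −0.34 without WT 1, −0.37 without KO 2 and −0.26 relative to genes of the same level. Per animal the list stood at 0.07, −0.11 and 0.06 in WT and −0.32, −0.43 and −0.20 in KO. Pgam2, a phosphoglycerate mutase of muscle and testis, had 5710.1, 4013 and 3449.9 normalized counts in WT and 2738, 1747 and 2460.4 in KO, a difference of −0.92 (SE 0.26). Eno1, enolase 1, had 245, 271 and 258 normalized counts in WT and 175, 122.9 and 145 in KO, a difference of −0.82 (SE 0.21). Gapdhs is given above, and Hk1, a hexokinase, had 17.3, 51.1 and 49.2 normalized counts in WT and 28.3, 18.4 and 33.1 in KO. Hk1 overlapped between the genotypes, as did Ldhc, which stands in this list too. Cholesterol synthesis had a median of −0.08, −0.15 without KO 2, and redox defence −0.15, −0.10 without WT 1.

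Of the called genes, Srsf9, Exosc1 and Sap30bp stand in lists of RNA and chromatin genes of which limma and edgeR called no other member. In these lists DESeq2 also called Exosc5 and Ehmt2. The 44 SR proteins and hnRNPs had a median of 0.19, 0.07 without WT 1, 0.05 without KO 2 and 0.31 relative to genes of the same level. In all KO animals 6 (13.6%) lay above WT and 5 (11.4%) below, Srsf9 included, beside 9.41% and 10.5% of all genes. Srsf11, another SR protein, had 1644, 1109 and 1472 normalized counts in WT and 855, 806 and 731 in KO, a difference of −0.80 (SE 0.20), and Hnrnpr, an hnRNP, had 163, 127 and 128 normalized counts in WT and 83.3, 86.1 and 71.5 in KO. The 50 genes of the exosome and RNA decay had a median of −0.02, −0.11 without KO 2, and 7 (14%) lay below and 6 (12%) above. Smg6, the endonuclease of nonsense-mediated decay, had 251, 234 and 253 normalized counts in WT and 141, 108 and 90.3 in KO, a difference of −1.14 (SE 0.23), and Upf2, a core factor of the same pathway, had 607, 493 and 555 normalized counts in WT and 464, 257 and 307 in KO. These lay lower in each KO animal, whereas Xrn1, the 5′ exonuclease, had 91.6, 57.9 and 65.7 normalized counts in WT and 73.01, 117 and 84.01 in KO.

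Bcas2, a core spliceosome protein needed in spermatogonia, had 55.7, 176 and 148 normalized counts in WT and 838, 545 and 851 in KO, a difference of 2.68 (SE 0.47). The 67 spliceosome genes had a median of 0.16, −0.03 without WT 1. In all KO animals 6 (8.96%) lay above WT and 7 (10.4%) below, near the 9.41% and 10.5% of all genes. Among 44 genes of SIN3, HDAC and H3K9 methylation the median was −0.14. Ehmt2, a histone H3K9 methyltransferase, had 40.9, 396 and 359 normalized counts in WT and 8.59, 4.84 and 10.7 in KO, so that WT 1 lay nearer to KO than to the other WT animals. Chd3, a remodeler of the NuRD repressor complex, had 498, 243 and 317 normalized counts in WT and 143, 199 and 149 in KO, and Hdac1 had 388, 392 and 307 normalized counts in WT and 469.8, 344 and 408 in KO. Med29, a Mediator subunit, had 142, 128 and 131 normalized counts in WT and 74.7, 68.7 and 84.9 in KO, a difference of −0.81 (SE 0.19), within a list of polymerases and general factors that had a median of 0.14 over 105 genes, and 0.00 without WT 1.

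Translation initiation had a median of −0.15, −0.09 without KO 2, and 0.00 relative to genes of the same level. Of 60 genes, 12 (20%) lay below WT in all KO animals and 2 above, beside 20.6% and 4.93% of genes between 300 and 1000 normalized counts. Eif3a, the scaffold subunit of eIF3, had 1366, 840.2 and 1264 normalized counts in WT and 622, 618 and 557 in KO, a difference of −0.92 (SE 0.23). Eif5b, which joins the ribosomal subunits, had 2756, 2128 and 2600.2 normalized counts in WT and 1880.1, 1172 and 1258 in KO, and Eif3b had 978, 938 and 925 normalized counts in WT and 622, 673 and 699.8 in KO. Cytosolic ribosomal proteins had a median of −0.05 over 80 genes, and 0.15 relative to genes of the same level, although Rpl28 had 669, 789 and 643 normalized counts in WT and 468, 325 and 353 in KO. The piRNA pathway, which guards the germ line against transposons, had a median of 0.10 over 24 genes, 0.06 without WT 1, and its helicase Ddx4 had 867, 999.4 and 920.1 normalized counts in WT and 1122, 978 and 1019 in KO.

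Chaperones had 11 of 55 genes (20%) below WT in all KO animals and 1 above, beside 20.6% and 4.93% of genes between 300 and 1000 normalized counts. Their median was −0.22, or −0.07 relative to genes of the same level. Hsph1, a heat shock protein of the HSP110 family, had 125, 169.8 and 159 normalized counts in WT and 50.7, 19.3 and 41.1 in KO, a difference of −2.09 (SE 0.39). Dnajb8, a testis DNAJ co-chaperone, had 4089.5, 2698 and 2456 normalized counts in WT and 1921, 1049.7 and 1795 in KO, Dnajb3, another, had 9372, 6972 and 6342 normalized counts in WT and 5455, 4531 and 5719 in KO and Hspa1l, a spermatid HSP70, had 2185, 1316 and 1312 normalized counts in WT and 956, 824 and 1291 in KO. All 4 lay lower in each KO animal. Proteasome genes had a median of 0.14 over 46, 0.00 without WT 1 and 0.23 relative to genes of the same level. Of the ubiquitin-conjugating enzymes, Ube2j2 had 42.1, 139.9 and 119 normalized counts in WT and 584, 551 and 568 in KO, a difference of 2.66 (SE 0.46), and Ube2j1, which acts in the same ER pathway, had 2245, 1757 and 1678 normalized counts in WT and 1347, 1162 and 1563 in KO. The genotypes were thus ordered in opposite ways in this pair, and the 33 enzymes together had a median of 0.00, −0.10 without WT 1.

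Actin regulators, the field of profilin, had a median of 0.15 over 63 genes that became −0.12 without WT 1. In all KO animals 6 (9.52%) lay above WT and 11 (17.5%) below, beside 9.41% and 10.5% of all genes. Cfl1, cofilin, which severs actin filaments, had 19.8, 13.5 and 12.6 normalized counts in WT and 137, 89.97 and 160 in KO, a difference of 2.98 (SE 0.32) (limma adjusted p = 0.0993). DESeq2 called Cfl1, and edgeR did not. Capzb, which caps filaments, lay on the other side, as given above, and Arpc5l, a subunit of the ARP2/3 nucleator, had 698, 489 and 391 normalized counts in WT and 289, 231 and 298 in KO, a difference of −0.91 (SE 0.27). Actb, cytoplasmic actin, had 2464, 2096 and 2202 normalized counts in WT and 1535, 2094 and 1634 in KO.

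Tubulins and the enzymes that modify them had a median of −0.21 over 49 genes. In all KO animals 8 (16.3%) lay below WT and 3 (6.12%) above, beside 10.5% and 9.41% of all genes. Tubb4b, a beta tubulin of the axoneme, had 6363, 4701 and 4229 normalized counts in WT and 3309, 2244 and 3216 in KO, a difference of −0.80 (SE 0.24). Ttll13, a tubulin polyglutamylase, had 427, 1062 and 387 normalized counts in WT and 159.8, 104 and 194 in KO, a difference of −1.92 (SE 0.46). Tuba8 had 1384, 1039 and 1099.7 normalized counts in WT and 776, 548 and 798 in KO. The 3 lay lower in each KO animal. Motors, 61 kinesins and dynein subunits, had a median of −0.06. Dynll2, a dynein light chain, had 567, 5009.6 and 5620.4 normalized counts in WT and 456, 486 and 419 in KO, so that WT 1 lay beside the KO animals.

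In the AKT, mTOR and AMPK list, 9 of 45 genes (20%) lay above WT in all KO animals and 4 (8.89%) below, beside 9.41% and 10.5% of all genes. The median of 0.15 was 0.03 without KO 2. Lamtor1, which anchors mTOR complex 1 at the lysosome, had 130, 293 and 264 normalized counts in WT and 482, 475 and 659 in KO, a difference of 1.298 (SE 0.35). Rps6kb1, the S6 kinase, had 81.7, 70.4 and 61.8 normalized counts in WT and 116, 131 and 115 in KO, and Pdpk1, the kinase that activates AKT, had 265, 158 and 217 normalized counts in WT and 137, 86.1 and 88.5 in KO. Mtor had 375, 479 and 631 normalized counts in WT and 356, 495 and 493 in KO and Prkaa1, a catalytic subunit of AMPK, had 194, 163 and 152 normalized counts in WT and 118, 167 and 129 in KO, both with overlap. Cyclins and their kinases had a median of 0.24 over 49 genes, 0.06 without WT 1. Cdk11b had 600.5, 506 and 533 normalized counts in WT and 321, 331 and 279 in KO, a difference of −0.82 (SE 0.18), and lay lower in each KO animal. Apoptosis genes had a median of 0.14 over 28, 0.01 without WT 1, and Bax had 42.1, 43.4 and 52.1 normalized counts in WT and 42.9, 71.6 and 61.7 in KO, with overlap.

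**Figure D5:**
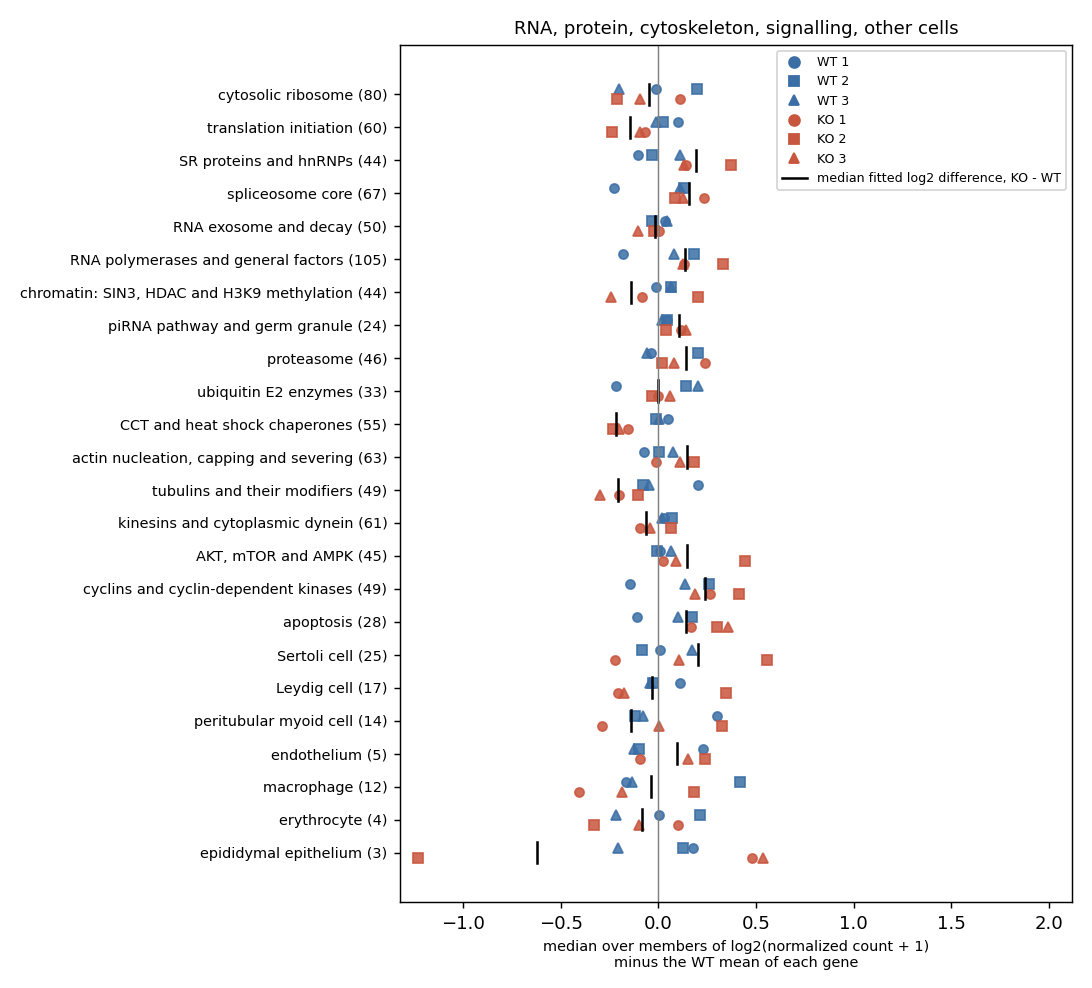
Median deviation in each animal from the WT mean of each gene (horizontal axis, log2) for lists of RNA and protein metabolism, cytoskeleton, signalling and other cells, with 1 mark per animal, the number of genes tested in brackets and a black line at the median fitted difference of KO minus WT. These medians lie between −0.22 for chaperones and 0.24 for cyclins and their kinases, apart from the epididymal list at −0.62, of which 3 genes were tested and which stood at 0.51 without KO 2.

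Outside the lists, the abundant genes with the lowest p-values and no overlap were of mixed function. Among those higher in KO, Kcnq1ot1, the antisense RNA of the imprinted Kcnq1 domain, had 172, 128 and 160.3 normalized counts in WT and 377, 429.5 and 352 in KO, a difference of 1.33 (SE 0.20). It overlaps Kcnq1 on the other strand. Phip, a bromodomain protein, had 119, 103 and 94.6 normalized counts in WT and 227, 237 and 204 in KO, Hells, a chromatin remodeler that acts in meiosis, had 115, 137 and 160.3 normalized counts in WT and 271, 278 and 231 in KO and Creb1, a transcription factor, had 78.001, 86.8 and 78.2 normalized counts in WT and 134, 167 and 152 in KO. Mbtd1, a chromatin reader, had 291, 353 and 397 normalized counts in WT and 569, 634 and 571 in KO and Kcnk10, a potassium channel, had 149, 162 and 171 normalized counts in WT and 253, 453 and 298 in KO. Of these 6, differences ran from 0.78 to 1.33.

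Among those lower in KO, Cby3 had 495, 248 and 264 normalized counts in WT and 15.5, 4.84 and 4.47 in KO, a difference of −5.31 (SE 0.52), and Lrrc8a, a subunit of the volume-regulated anion channel, had 369, 481 and 533 normalized counts in WT and 85.9, 24.2 and 71.5 in KO, a difference of −3.08 (SE 0.49). Fkbp4, a co-chaperone of steroid receptors, had 2523, 2547 and 2312 normalized counts in WT and 1407, 1069 and 1179.7 in KO. Cep350, a centrosomal protein, had 1161, 671 and 830.4 normalized counts in WT and 301, 332 and 271 in KO, and Wdr60, a dynein subunit of intraflagellar transport, had 613, 406 and 521 normalized counts in WT and 223, 142 and 158 in KO. Cmc2, a mitochondrial protein of cytochrome oxidase assembly, had 246, 190 and 96.6 normalized counts in WT and 29.2, 28.1 and 38.4 in KO. BC051142 had 5086, 5847 and 6259 normalized counts in WT and 3061, 2464 and 3129 in KO. KO animals of these genes lay below WT, with differences of −0.99 or more in size.

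The counting is not stated to use strand. Of the genes named here, leaving aside the overlapping partners themselves, 34 overlap a gene with signal on the other strand. Their reads cannot be told apart from those of that gene. These are Arpc5l, B3gnt9, Cfl1, Copa, Crem, Csf1r, Dnajb3, Dnajb8, Dnali1, Eif5b, Ggn, Golga2, Hspa1l, Kcnq1ot1, Lamtor1, Lrrc8a, Oaz3, Optn, Piwil1, Rab6a, Rpl28, Rps6kb1, Sap30bp, Smg6, Spaca4, Sqstm1, Sycp3, Tnp1, Tssk1, Tuba8, Tubb4b, Xrn1, Zpbp and mt-Co1. Lrrc51, which overlaps Lamtor1, had 2607, 1081 and 1012 normalized counts in WT and 165, 487 and 650 in KO, the order opposite to Lamtor1. For Lrrc8a the partner, 1700084E18Rik, had 184, 2.89 and 9.66 in WT and 99.6, 179 and 105 in KO, with overlap. In contrast, 1700027A15Rik, which overlaps Tnp1, lay lower in each KO animal, as Tnp1 did. The part of such partners in the differences was not tested. Eno1 has a near-identical copy, between which reads can be split. Qrich1, Srsf11 and Kcnk10 overlap a gene with signal on the same strand.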

How the data were processed

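RNA was measured in the testes of 3 WT and 3 KO animals, grouped by the genotype in their labels. The labels' processing notes name Trim Galore 0.4.5, HISAT2 2.1, StringTie 1.3.3, DESeq2 and the build GRCm38. The signal values that the authors deposited are normalized counts: the reads of a gene over a size factor that each animal has. The pseudogenes had been taken out by the authors. All values above 0 were whole multiples of 1 read (tolerance 1e-06 of a read), so reads were recovered for the count tests. Reads counted on genes numbered 3375546 to 4287335, and 3 reads were taken as the floor, which covers counting error only.

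Genes that reached 10 in 3 or more of the 6 animals were compared with limma 3.58.1 (eBayes with a trend) in R 4.3.3, on log2(value + 1), with Benjamini-Hochberg adjustment. Fold changes on this scale understate the change of genes with few counts. Calls needed an adjusted p-value below 0.05 together with a log2 difference beyond 1.5. Lists of genes, 59 in all, were described by counts and medians with no test over a list. The lists, the genes and the comparison were chosen with earlier results of these data known. Genes were named by rule: Pfn3, the called genes, for each list its anchor genes and up to 3 members with the lowest p-value among those without overlap, and up to 10 genes per direction with a mean of at least 100. For lists described by counts, and for lists of which a few members are described, the others named by the rule are not printed. The functions were tested on simulated data. Alternatives were DESeq2 1.42.0, edgeR 4.0.16, TMM factors, reads per library, other filters and pseudocounts, all 9 animals, a replicate block and each animal left out. Leaving out both WT 1 and KO 2, and the reference to genes of the same level, were added after seeing the data. Promoter windows came from RefSeq (GRCm38.p6). Het animals entered only the fit of all 9, and some genes are not reported here. Tables were handled with Python 3.11.15, pandas 2.3.3 and numpy 2.4.6, and figures drawn with matplotlib 3.10.9.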

Additional observations from a re-analysis of the deposited data

How the results depend on the processing

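The number of called genes, 5 by limma, was 101 with DESeq2, 3 with all 9 animals in the fit (1 of the 5 among them), 2 of 8649 genes with a filter of at least 50, 68 without both WT 1 and KO 2, and from 0 to 55 with 1 animal left out. With the replicate block it was 0, with 271 genes higher and 523 lower at an unadjusted p-value under 0.05. Same-numbered animals did not deviate together (correlations of −0.12, −0.06 and −0.03), and those of the other pairs lay between −0.06 and 0.12. With 3 animals per genotype this cannot settle whether the numbers mark pairs. The genes with an unadjusted p-value under 0.05 numbered 755 with the filter of at least 50 (199 higher) and 640 to 1266 with 1 animal left out (184 to 554 higher, 442 to 712 lower). Higher genes numbered 743 without a filter and 965 per read counted, where lower genes numbered 354.

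List medians are given here relative to the median of all genes in the same setting. With both WT 1 and KO 2 left out they were −0.27 for round spermatids, −0.31 for late spermatids, −0.028 for the acrosome, −0.26 for the outer dense fibres and −0.12 for ion channels. Relative to genes of the same level they were 0.15 from pachytene to round spermatid, −0.32 for late spermatids, −0.049 for the acrosome, 0.0905 for the manchette, −0.34 for the outer dense fibres and −0.19 for ion channels. The median of spermatogonia was −0.12 without a filter. With 1 animal left out the median ranged from 0.18 to 0.33 for meiotic prophase, from −0.36 to −0.14 for the acrosome and from −0.62 to −0.37 for the outer dense fibres. With the filter of at least 50, the X chromosome was at 0.057 and TEC genes at 0.11. In these alternatives the meiotic list stayed above 0 and the round spermatid, late spermatid and outer dense fibre lists below it.

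Of 144 named genes with a difference, 9 changed sign, and all 9 overlapped between the genotypes. With 1 animal left out they ranged from −0.52 to 0.70 (Crem), −0.24 to 0.12 (Acr), −0.18 to 0.17 (Dnah1), −0.35 to 0.018 (Slc9c1), −0.25 to 0.11 (Copb1), −0.41 to 0.43 (Sqstm1), −0.31 to 0.0625 (Mtor), −0.60 to 0.0205 (Cyp17a1) and −0.12 to 0.41 (Csf1r). Without both WT 1 and KO 2, Crem was at −0.10, Slc9c1 at 0.19, Sqstm1 at 0.90 and Csf1r at −0.043. Per read counted, Acr was at 0.13, Dnah1 at 0.19, Copb1 at 0.13, Sqstm1 at 0.13 and Mtor at 0.075. Crem was at −0.033 with DESeq2 and with edgeR, and Dnah1 at 0.013 with TMM factors. The causes were not tested. Depth limits the genes under 30 normalized counts most, where 3 reads correspond to 2.58 to 3.71 normalized counts.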

Other observations

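By chromosome, the median log2 difference in KO minus WT lay between −0.08 and 0.10 on the 19 autosomes, against 0.02 over all genes. The 515 genes tested on the X chromosome had a median of 0.15, 0.04 without WT 1. All KO animals lay above WT for 60 of them (11.65%) and below for 38 (7.38%), beside 9.41% and 10.5% of all genes. X-linked genes are silenced during male meiosis and partly expressed again in spermatids. The 23 genes tested on the Y chromosome had a median of 0.37, 0.18 without WT 1 and 0.55 without KO 2, with 5 above WT in all KO animals and 0 below. Genes of these chromosomes had a lower median level than all genes, 41.5 normalized counts on X and 20.1 on Y against 71.5.

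By class of transcript, the 12259 protein-coding genes had a median of 0.03 and the 1603 long non-coding RNAs −0.13, which was 0.00 without KO 2. The 264 genes that the annotation marks as TEC (transcripts yet to be checked by experiment) had a median of 0.30, and all KO animals lay above WT for 59 of them (22.3%) and below for 13, beside 9.41% and 10.5% of all genes. Of the 59, 17 had all WT animals under 10 and passed the filter through KO alone, so that their order was set by the rule. For 0 of the 264 genes it was the other way. The median of the TEC genes was 0.32 without WT 1 and 0.37 without WT 1 and KO 2, and their median level was 21.5 normalized counts. None of these genes was called by limma, while 39 were higher and 6 lower at an unadjusted p-value under 0.05.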
